A study of Mus musculus with 5 samples.

Results

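C1qa, C1qb and C1qc encode the A, B and C chains of C1q, the recognition molecule of the classical complement pathway. They were taken by symbol, 3 of the 28692 genes in the deposited gene table, and were followed in 4 droplet single-cell RNA libraries and 1 plate-based sample of mouse kidney. The tissue came from a reversible unilateral ureteric obstruction (UUO) model, where 1 ureter is tied off and the block is later removed. The droplet libraries counted transcripts as unique molecular identifiers (UMIs), each standing for 1 captured RNA molecule.

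The 3 chains fold together through collagen-like stalks into a bouquet whose globular heads bind immune complexes, pentraxins and dying cells. Bound C1q switches on the proteases C1r and C1s, which cut C4 and C2 and so lead to C3. Most complement proteins are made in the liver, whereas C1q is known as a product of tissue macrophages and dendritic cells, and its chains are common markers of kidney resident macrophages.

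All mice were C57/BL6 and 8 weeks old, and no transgene, deletion or drug is named in the labels. Sham-operated kidneys (day 0) were the control. Obstructed kidneys were taken on UUO day 2 or on UUO day 7. The last group, reversed UUO, was collected on experimental day 14, when the obstruction had been released for 7 days. Each group was a single library of kidneys pooled from 3 mice, digested in the cold and sorted for live cells with DAPI, so no time point had a replicate library. Time points were therefore compared without a test. Every interval given is an exact 95% interval for counting error alone. The plate-based sample held 768 wells on 8 plates with all time points mixed. No well carries a time point here, and its labels repeat the droplet workflow, so how its wells were prepared is not stated.

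After filtering, 3753 sham, 2157 day 2, 4292 day 7 and 3151 reversed cells remained, with median depths of 2668, 6531, 5645 and 4869 UMIs. The sham library was the shallowest and lost the most cells to a limit on mitochondrial UMIs (1607 of 5938 deposited cells). The libraries shared 146 of 16730 cell barcodes, and 88 of the 13265 distinct barcodes that were kept. Cells were called by marker genes that did not include C1q. A cell called a mononuclear phagocyte is written phagocyte-like, and within these a cell whose best score was for the macrophage list is written macrophage-like. Adgre1, which encodes the macrophage antigen F4/80, had a UMI in 93.4% of macrophage-like cells against 58.3% of other phagocyte-like cells. Ly6c2 marked 70.1% of cells called Ly6c2-high monocytes against 12.5% of the rest, but 50% of the clusters given that name. Cd209a marked 74.1% of cells called type 2 dendritic against 10.3%. Ly6c2 and Cd209a belong to the lists used for these calls, so their enrichment is partly set by the call. The type 1 dendritic name was less well borne out: Xcr1 or Clec9a had a UMI in 61.9% of cells so called one by one (5.04% of other phagocyte-like cells) and in 45.7% of the cluster given that name (7.47% of others). Values under both namings are given below for some results. Other values are for cells called singly unless a cluster is named.

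The genes lie side by side on the minus strand of chromosome 4 (GRCm38, GENCODE vM21), and all 3 are protein coding with 3 exon blocks. C1qb (ENSMUSG00000036905) occupies chr4:136880129-136886187, C1qc (ENSMUSG00000036896) chr4:136889804-136893065 and C1qa (ENSMUSG00000036887) chr4:136895917-136898803. The gaps between them measure 3616 and 2851 bases, and the whole cluster spans 18.675 kb with no other annotated gene inside it. RefSeq windows from 250 bases before to 50 bases after the annotated start (GRCm38.p6) held C1qb and C1qc. The upstream sequences are shown because the 3 genes moved together across sums of cell classes and clusters, and they are written 5′ to 3′ along the genes' strand up to the first base of any annotated transcript. Capitals mark the PU.1 core GAGGAA on either strand and the Maf half-site TGCTGA, also searched on both strands; PU.1 (Spi1) and the Maf factors are known macrophage transcription factors.
C1qb: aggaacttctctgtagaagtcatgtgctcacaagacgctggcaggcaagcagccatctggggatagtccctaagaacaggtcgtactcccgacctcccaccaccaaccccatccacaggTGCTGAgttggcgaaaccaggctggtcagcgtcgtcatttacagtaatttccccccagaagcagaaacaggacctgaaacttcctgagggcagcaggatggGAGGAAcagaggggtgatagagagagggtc
C1qc: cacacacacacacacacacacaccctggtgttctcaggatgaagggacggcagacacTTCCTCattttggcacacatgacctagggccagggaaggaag
The C1qb sequence covers chr4:136886201-136886450 and the C1qc sequence chr4:136893066-136893164, both on the minus strand. C1qb held GAGGAA at position -30 from the RefSeq start and TGCTGA at -131. C1qc held the PU.1 core at -193 on the opposite strand, written TTCCTC, and no TGCTGA. These letters are common: 28.3% of 32817 promoter windows held GAGGAA on either strand and 19.5% held TGCTGA. Neither window held the interferon response element GAAANNGAA (8.55% of all windows), the NF-kappaB site GGGACTTTC (0.353%) or the AP-1 site TGANTCA (7.81%). The E box CANNTG matched at 3 places in C1qb and at 1 in C1qc, and 72.3% of all windows held it. A match of letters is a description of the sequence and not a bound site.

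Over whole libraries, every chain was lowest in sham and highest at UUO day 7. C1qa stood at 56.2 CPM (UMIs scaled to a total of 1000000) in sham, 630 at day 2, 2350 at day 7 and 870 after reversal. C1qb stood at 53.5, 784, 2233 and 775 CPM. C1qc stood at 41.8, 436, 1579 and 571 CPM in the same order. The summed level of the 3 chains was therefore 151 CPM in sham, 1850 at day 2, 6162 at day 7 and 2216 in the reversed library, and no chain departed from that order of highest and lowest library.

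The libraries with the lowest and the highest C1q were also those with the lowest and the highest phagocyte-like share of cells, while day 2 and reversed came in the opposite order. That share was 1.52% in sham, 21.9% at day 2, 45.3% at day 7 and 15.7% after reversal. Those cells held 78.9% of the C1q UMIs of the sham library (77.0 to 80.7). They held 92.3% at day 2 (92.0 to 92.6), 85.8% at day 7 (85.7 to 86.0) and 85.7% in the reversed library (85.3 to 86.0). In sham, a class with 1.52% of the cells thus carried most of the C1q. The live-cell sort and the digestion also act on how many phagocytes a library holds, and their part was not tested.

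**Figure D1:**
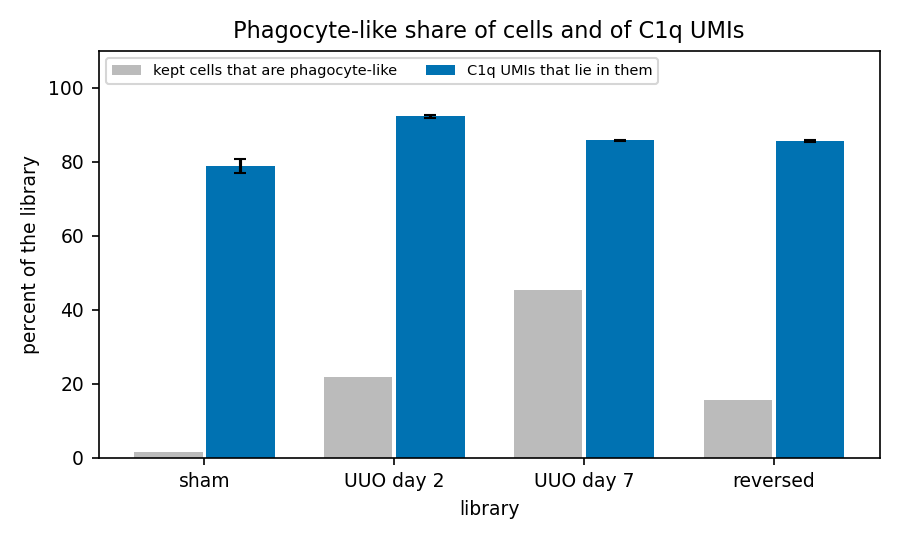
Phagocyte-like cells as a percent of kept cells (grey bars) and the percent of the library's C1q UMIs found in them (blue bars, exact 95% intervals), for the 4 droplet libraries. The cell share runs from 1.52% in sham to 45.3% at day 7, while the C1q share lies between 78.9% and 92.3%.

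Within macrophage-like cells the chains stayed within 2-fold of their level in the compared library in all 4 comparisons. C1qa was 5439 CPM in sham (4650 to 6324), 4013 at day 2 (3852 to 4178), 6523 at day 7 (6444 to 6602) and 6362 after reversal (6223 to 6502). The day 2 library was lowest for this chain, and the intervals of day 7 and the reversed library overlapped. C1qb was 6791 CPM in sham (5905 to 7772), 4497 at day 2 (4328 to 4672), 6040 at day 7 (5965 to 6117) and 5502 after reversal (5374 to 5633). Day 2 was again lowest, and day 7 overlapped sham. C1qc was 5182 CPM in sham (4412 to 6047), 2813 at day 2 (2679 to 2952), 4449 at day 7 (4384 to 4514) and 4340 after reversal (4226 to 4457). Day 2 lay below the interval of every other library for all 3 chains in these cells called singly. The sham values rest on 8 cells and 541 C1q UMIs, against 44 cells at day 2, 607 at day 7 and 172 after reversal. In the macrophage clusters C1qb was 5582 CPM at day 2, 5797 at day 7 and 5171 after reversal, so day 2 was not lowest there. C1qa was 4953, 6354 and 5820 CPM in those clusters, and C1qc 3830, 4410 and 3950. They held 27, 1209 and 158 cells in these libraries.

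**Figure D2:**
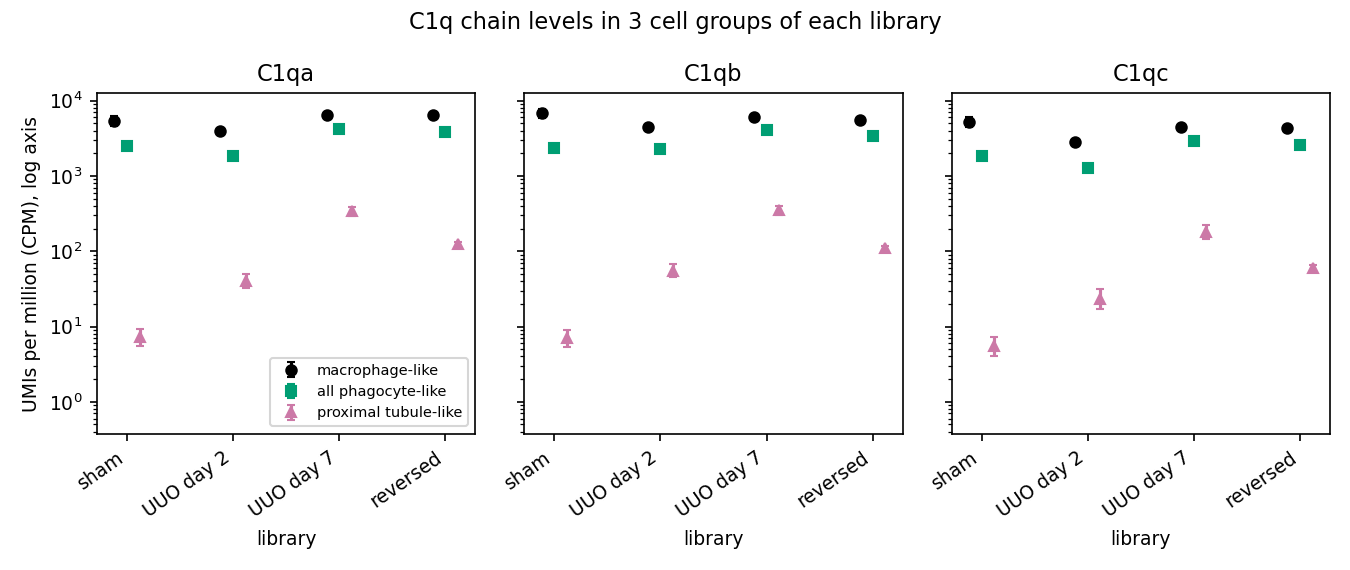
Level of each C1q chain (CPM, log axis) in macrophage-like cells (black circles), all phagocyte-like cells (green squares) and proximal tubule-like cells (pink triangles) of the 4 libraries; bars are exact 95% Poisson intervals. Macrophage-like cells sit between 2813 and 6791 CPM in every panel, and day 2 is their lowest library.

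Day 2 against sham gave a summed C1q log2 ratio of -0.62 (-0.75 to -0.49) in macrophage-like cells. The chains gave -0.44 (C1qa), -0.59 (C1qb) and -0.88 (C1qc), so 0 of 3 passed 2-fold, while 31.5% of the 2776 genes tested were past 2-fold higher and 7.17% past 2-fold lower. The median of all tested genes was 0.48 in that comparison. Day 7 against day 2 gave 0.59 (0.55 to 0.62) for the sum, with 0.70 for C1qa, 0.43 for C1qb and 0.66 for C1qc. Again 0 of 3 passed 2-fold, beside 11.7% of 8544 genes higher and 7.05% lower, with a median of -0.04. The sham sum holds only 31071 UMIs from 8 cells, so a gene at 0 in sham could be tested through its day 2 UMIs alone. The median and shares against sham therefore depend on depth, and the direction of C1q is not read against them. The summed C1q ratio of day 2 over sham was -0.18 when the sums were scaled with TMM factors, a trimmed mean that corrects for differing composition.

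Reversed UUO against day 7 gave a summed log2 ratio of -0.07 (-0.09 to -0.05). The chains gave -0.04 for C1qa, -0.13 for C1qb and -0.04 for C1qc, and 0 of 3 passed 2-fold beside 2.23% of 8912 genes higher and 2.38% lower. A week after release, the macrophage-like cells that were recovered thus carried nearly the C1q level of the obstructed kidney. Reversed UUO against sham gave -0.10 (-0.23 to 0.02), with 0.23 for C1qa, -0.30 for C1qb and -0.26 for C1qc. None of the 3 passed 2-fold there, beside 31.7% of 4721 genes higher and 12.1% lower. The interval of that sum held 0, and TMM scaling turned its sign to 0.44, so no direction between reversed and sham is given.

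The class called macrophage-like was made of different cells in different libraries, as a clustering of the phagocytes without the C1q genes showed. The 8 sham cells all fell in cluster 10, whose leading genes include the proximal tubule genes Miox and Slc34a1 beside Ms4a7 and which was left unnamed. At day 2, 36 of 44 cells fell in cluster 4, with the chemokine gene Ccl24 and the thrombospondin gene Thbs1 among its leading genes, or in cluster 9, led by the cell cycle genes Stmn1 and Top2a. At day 7, 386 of 607 fell in cluster 1, led by Lilra5 and Fcgr4, or cluster 8, led by Ccl8, Folr2 and Stab1. After reversal 92 of 172 were again in cluster 10.

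This makeup moved with the low day 2 value. The 36 day 2 cells of clusters 4 and 9 had 9612 CPM of summed C1q (9346 to 9883), whereas the 7 in clusters 1 and 8 had 24200 (23062 to 25380). At day 7 the cells of clusters 1 and 8 had 17956 CPM (17785 to 18129), and 46 cells of clusters 4 and 9 had 15056 (14707 to 15411). The day 2 library was therefore low in the cells of clusters 4 and 9, and its few Lilra5 and Ccl8 cells stood above those of day 7. Without the cells of cluster 10, the reversed library had 15415 CPM, and with cluster 10 alone 16922.

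Single cells showed the same spread. Per 10000 UMIs of a cell, the median C1q count was 162 in sham (lowest 106, highest 286), 80.6 at day 2 (0.585 to 305), 170 at day 7 (4.02 to 483) and 168 after reversal (16.2 to 535). At least 100 C1q UMIs per 10000 were found in 8 of 8 sham cells, 20 of 44 at day 2 (45.5%), 570 of 607 at day 7 (93.9%) and 154 of 172 after reversal (89.5%). At day 2, 7 of 44 macrophage-like cells (15.9%) lay at or under 5 times the level of the proximal tubule-like cells of their library, against 5 of 607 at day 7. The day 2 cells were also the deepest, with a median of 13352 UMIs against 3885, 6426 and 6732.5.

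The macrophage calls have soft edges. Within 0.2 of the next list's score lay 2 of 8 sham, 13 of 44 day 2, 133 of 607 day 7 and 21 of 172 reversed calls. The 13 day 2 calls near that edge had 5695 CPM of C1q, against 11323 in the whole class. Another 24 day 2 cells scored highest for the macrophage list without reaching the margin for a call, and they had 9894 CPM.

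Cluster by cluster, C1q was high in most phagocytes with macrophage genes and low in the dendritic clusters named by markers, whereas the clusters named as monocytes differed among themselves. Over all libraries the Ccl8 and Folr2 cluster (8) had 17600 CPM of summed C1q and the Lilra5 cluster (1) 17363. The tubule-gene cluster (10) followed with 15643, and the cluster led by the immediate-early genes Egr1 and Fos (3) with 14637. The interferon-gene cluster led by Rsad2 (11) had 13499, the Cxcl9 and C3 cluster (5) 12243 and the cycling cluster (9) 10613. These 7 clusters thus ranged over less than 2-fold. The order pools libraries in which the clusters have unequal numbers of cells.

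Below them came a middle group. Cluster 4, named Ly6c2-high monocyte by its markers, had 6456 CPM pooled, with 168 of its 271 cells from day 2. At day 7 alone it had 10960, below the 12380 of the cycling cluster in that library and above the 4200 of cluster 6. Cluster 6, led by Retnla, Ear2 and Mmp12, had 3975 pooled. Retnla and Mmp12 are genes of alternatively activated and matrix-degrading macrophages, but the cluster was left unnamed. Its type 2 dendritic list stood above its macrophage list at day 7 (2633 against 1248 CPM) and after reversal (2032 against 1253). The low group held the Cd209a type 2 dendritic cluster (805), the Ly6c2 and Chil3 monocyte cluster (cluster 7, 877), the Ccr7 dendritic cluster (1007), the Xcr1 type 1 dendritic cluster (690) and the Ace-positive monocyte cluster (615). Beside Xcr1 and Clec9a, the leading genes of the Xcr1 cluster included Hist1h2ap and Birc5, which also led the cycling cluster. Cluster 14, led by T cell receptor genes, had 1086, which is in the same range. No phagocyte cluster lay between 1086 and 3975 CPM when pooled.

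**Figure D3:**
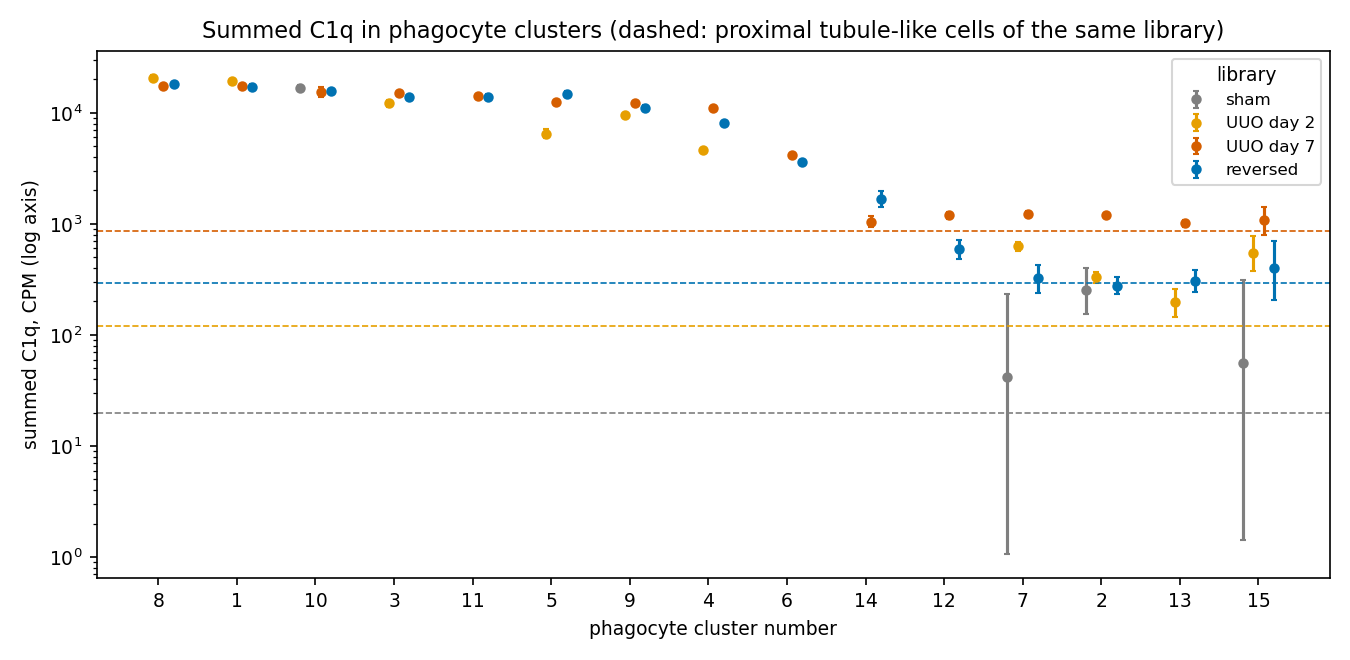
Summed C1q (CPM, log axis) of each phagocyte cluster in each library with exact 95% intervals, for clusters with at least 5 cells in the library, ordered by their level over all libraries, with dashed lines at the proximal tubule-like level of the same library. Clusters 1, 8, 3, 11 and 10 sit above 10000 in most libraries, whereas clusters 12 to 15, 2 and 7 sit near the dashed line of their library at day 7.

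The low group was set beside cells that should lack C1q in the same library, and some of its clusters stood above them in some libraries. Proximal tubule-like cells had 19.7 CPM of summed C1q in sham, 119 at day 2, 869 at day 7 and 292 after reversal. Endothelium-like cells had 12.2, 112, 1046 and 253 CPM, and T cell-like cells 66.9, 143, 1243 and 325. Free RNA in droplets is known to give UMIs to cells that do not express a gene, and its part in these levels was not tested. The Cd209a cluster had 256, 329, 1195 and 278 CPM in the same order, so it exceeded the tubule level in the first 3 libraries, and its interval after reversal (232 to 331) held that level. The Xcr1 cluster had 196 CPM at day 2, 1013 at day 7 and 308 after reversal. The Ly6c2 and Chil3 monocyte cluster had 627 CPM at day 2 (567 to 691), clearly above 119, then 1231 at day 7 and 324 after reversal, near the tubule level in the last library. The Ace-positive cluster had 551 CPM at day 2 (377 to 778), also above 119. At day 7 and after reversal the Cd209a, the Xcr1, and the Ly6c2 and Chil3 clusters did not exceed the T cell-like level. At day 2 all of them did. Differences of these clusters between libraries (log2 1.86 for the Cd209a cluster from day 2 to day 7, and -2.10 from day 7 to reversed) moved in the same direction as the tubule-like level.

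The share of cells with a C1q UMI was also above 0 in tubule-like cells. With every cell thinned to 1000 UMIs, 100% of macrophage-like cells in sham, 86.4% at day 2, 99.8% at day 7 and 100% after reversal had at least 1 C1q UMI. Proximal tubule-like cells had 2.16%, 11.0%, 48.4% and 25.4%, and without thinning 4.99%, 47.4%, 97.8% and 76.5%. All 3 chains together were seen in 100%, 63.6%, 95.6% and 97.7% of thinned macrophage-like cells. In tubule-like cells they were seen in 0.04%, 0%, 2.20% and 0%. A share with all 3 chains cannot exceed the share with any chain, so the lower values hold by construction.

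From day 2 to day 7 the C1q level of cluster 4 differed by more than 2-fold, while from day 7 to reversed clusters 1, 8 and 11 differed by less than 0.1 on the log2 scale. Cluster 4 had 4601 CPM at day 2 (4502 to 4702), 10960 at day 7 (10697 to 11228) and 8033 after reversal (7746 to 8328). Its log2 ratio of day 7 over day 2 was 1.25 (1.21 to 1.30), and of reversed over day 7 -0.45 (-0.51 to -0.39). Over the same step its summed Ly6c2-monocyte marker list went from 2421 to 1479 CPM and its macrophage list from 1765 to 2947, with all 8 genes of each list detected in both. The cycling cluster gave 0.36 (0.33 to 0.40), from 9616 to 12380 CPM. From day 7 to reversed, cluster 1 gave -0.01, cluster 8 0.08, cluster 11 -0.01, cluster 3 -0.12, cluster 6 -0.22 and cluster 5 0.25 (10 reversed cells). Cluster 10 gave -0.11 from sham to reversed (-0.18 to -0.03), with 16891 CPM in 32 sham cells and 15654 in 167 reversed cells.

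Cluster 10 also carried tubule transcripts. In sham it held 9 of 10 proximal tubule marker genes at 1429 CPM summed (Slc5a12 at 0), against 10723 in proximal tubule-like cells. After reversal it held 10 of 10 at 828 CPM, against 10097, and the macrophage list stood at 4890 and 5293 CPM. In the macrophage-like class the tubule list stood at 1706, 447, 395 and 724 CPM from sham to reversed. The part of tubule RNA in the C1q values of these cells was not tested.

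The clusters that held most C1q UMIs differed between libraries, except that cluster 10 led in both sham and reversed. In sham, cluster 10 held 84.6% of all C1q UMIs (82.9 to 86.2). At day 2 the cycling cluster held 53.4% (52.8 to 54.0) and cluster 4 26.3%, so most C1q UMIs of that library lay in these clusters. At day 7 the Lilra5 cluster held 37.1% (36.9 to 37.3), followed by clusters 3 and 5 at 11.8% each and cluster 8 at 9.90%. After reversal cluster 10 held 39.7% (39.2 to 40.1) and cluster 3 19.5%. Because 1 library stands for each time point, a cluster found mostly in 1 library cannot be told apart from that library.

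Over all phagocyte-like cells the chains were lower than in macrophage-like cells in each library. C1qa was 2470 CPM in sham, 1825 at day 2, 4245 at day 7 and 3795 after reversal. C1qb was 2354, 2268, 4050 and 3372 CPM, and C1qc 1827, 1272, 2894 and 2555 CPM. Day 2 was the lowest library for each chain, as it was in macrophage-like cells. From day 2 to day 7, C1qa gave a log2 ratio of 1.22 (1.19 to 1.25), C1qc 1.19 (1.15 to 1.22) and C1qb 0.84 (0.81 to 0.86). Thus 2 of 3 chains passed 2-fold there, while 10.7% of 11325 genes did so in either direction. In day 2 against sham, reversed against day 7 and reversed against sham none of the 3 passed, beside 27%, 3.03% and 23.2% of genes. In phagocyte-like cells not called macrophage the sum was 4917, 4628, 8728 and 6630 CPM.

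The chains were higher in macrophage-like cells than in the 3 other subsets compared, in each library with at least 10 cells of both. Against cells called Ly6c2-high monocytes, the mean log2 difference over day 2, day 7 and reversed was 3.35 for C1qa, 2.63 for C1qb and 3.23 for C1qc. With the level of proximal tubule-like cells of the same library subtracted, as a stand-in for free RNA, it was 4.12, 2.94 and 3.61. Against cells called type 2 dendritic it was 2.99, 2.85 and 3.27. Against cells called type 1 dendritic it was 0.89, 0.90 and 0.89, and 106 of those 231 cells lay in macrophage clusters. All 9 differences had the same sign in 3 of 3 libraries. With a limit of 20% mitochondrial UMIs the type 1 dendritic differences were 0.090, 0.10 and 0.13, and the exact sign-flip p for C1qc was 0.5. In the main setting the exact two-sided sign-flip test gave p = 0.25 for each (0.25 after Benjamini-Hochberg adjustment over 9), which is the smallest value that 3 pairs allow. With cluster names the type 2 dendritic difference was larger (4.97, 4.79 and 5.34), and that of type 1 dendritic cells became 5.11, 5.23 and 5.82. The Ly6c2 difference was smaller by cluster (1.71, 1.54 and 1.74), where that name also covers cluster 4. In cluster 4 the Ly6c2-monocyte list stood above the macrophage list at day 2 (2421 against 1765 CPM). It stood below it at day 7 (1479 against 2947) and after reversal (1079 against 2856). The by-cluster value is therefore not a contrast with Ly6c2-high monocytes alone.

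The 3 chains were not in 1 fixed ratio in all cells, and the C1qb share had no single relation to the summed level. Droplet shares are read here between groups of cells, not between chains. In macrophage-like cells C1qb made up 39.0% of C1q UMIs in sham (34.9 to 43.3), 39.7% at day 2 (38.5 to 40.9), 35.5% at day 7 (35.2 to 35.9) and 34.0% after reversal (33.3 to 34.6). C1qa made up 31.2%, 35.4%, 38.3% and 39.3%, and C1qc 29.8%, 24.8%, 26.2% and 26.8%. In the Ly6c2 and Chil3 monocyte cluster at day 2, C1qb made up 62.1% (57.2 to 66.9) and C1qc 16.6%. That interval lies above the macrophage-like one of the same library by a wide margin.

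The same cluster had a C1qb share of 39.5% at day 7 (36.3 to 42.8) and 52.1% after reversal (37.2 to 66.7), the former close to the 40.1% of tubule-like cells. Cluster 4 gave 44.5% at day 2 (43.4 to 45.6), 38.3% at day 7 (37.1 to 39.5) and 33.8% after reversal (32.1 to 35.5). Its share and that of the macrophage-like class were ordered alike over these 3 libraries. The Retnla cluster was higher in both libraries that held it in number, with 44.1% at day 7 (42.8 to 45.3) and 44.6% after reversal (42.6 to 46.7). Neutrophil-like cells called singly had 52.3% at day 2 (46.1 to 58.4), 35.9% at day 7 (33.2 to 38.6) and 56.1% after reversal (42.4 to 69.3), on summed levels of 1196, 3414 and 508 CPM. They held 266, 1218 and 57 C1q UMIs in 1.76%, 1.70% and 0.762% of the cells. By cluster, neutrophils held 73, 622 and 67 C1q UMIs in 1.11%, 1.47% and 0.825% of the cells, so these values depend on the naming. The Xcr1 cluster after reversal, at 308 CPM, had 28.9% (19.1 to 40.5).

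**Figure D4:**
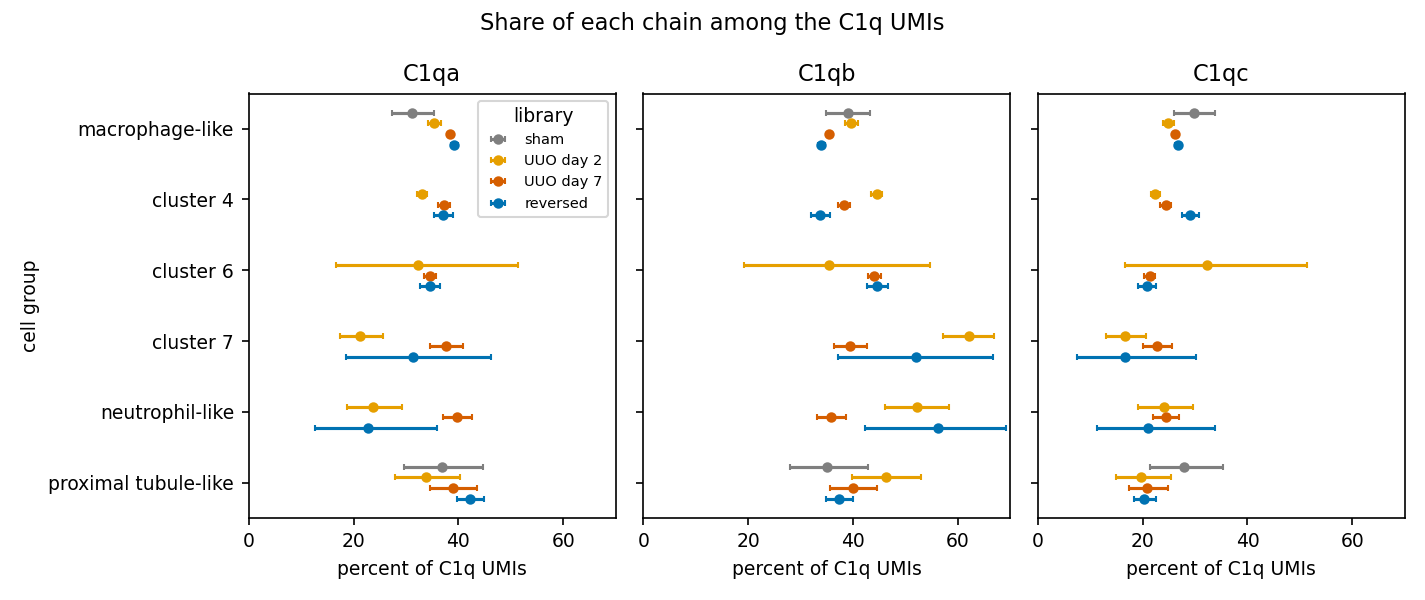
Share of each chain among the C1q UMIs (percent, exact 95% intervals) in 6 groups of cells by library; a library with fewer than 30 C1q UMIs in a group has no point. C1qb lies at 62.1% in the Ly6c2 and Chil3 monocyte cluster (cluster 7) and 52.3% in neutrophil-like cells at day 2, against 39.7% in macrophage-like cells.

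Among macrophage-like cells of a library, C1q was compared between cells with and without a UMI of a state gene. After thinning to 1000 UMIs, day 7 cells with a UMI of Ccl8, a chemokine gene, had 19.7 C1q UMIs per cell against 17.0 without (log2 0.21, 0.14 to 0.28, 110 cells with it). In the reversed library that difference was -0.08, so it was not shared. Cells with Ccr2, the receptor of monocyte recruitment, had 16.0 against 18.5 at day 7 (log2 -0.21, -0.27 to -0.15). The Ccr2 difference was -0.88 at day 2 with 14 such cells (-1.23 to -0.55) and -0.12 after reversal (-0.24 to -0.0056). Day 7 cells with Ly6c2 had 13 against 17.6 (log2 -0.44, 15 cells). Of the gates with enough cells in 3 libraries when cells were called singly, Ccr2 and Trem2 had the lower level in each and Cx3cr1 did not. Ccr2 and Ly6c2 belong to the Ly6c2-high monocyte list and Trem2 to the macrophage list, so their differences are not independent of the call. Trem2 gave -0.48 at day 2 (22 cells with it), -0.024 at day 7 (-0.095 to 0.045) and -0.13 after reversal. Cx3cr1, Mrc1, Spp1, Mmp12, proliferation genes (Mki67 or Top2a) and Cxcl9 or Cxcl10 each differed by less than 0.1 at day 7, while after reversal Mmp12 gave -0.36 (19 cells), Spp1 0.18 and Cxcl9 or Cxcl10 0.27 (12 cells). Several of these depended on how the cells were named. Cx3cr1 at day 2 gave 0.069 in cells called singly and 0.80 (0.50 to 1.11) in macrophage clusters, where 11 cells had it. In macrophage clusters, Trem2 gave 0.041 at day 7 and 0.041 after reversal, and Spp1 after reversal gave -0.13 (-0.25 to -0.0068). Cxcl9 or Cxcl10 after reversal gave 0.10 (-0.061 to 0.27), Ccr2 after reversal -0.034 (-0.17 to 0.098) and Mmp12 at day 7 -0.24. The Ccr2 and Ly6c2 differences at day 7 were -0.20 and -0.59 there, of the same sign as above.

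The complement partners of C1q were measured in the same cells. The listed genes were 49 symbols in 6 groups, 48 of them in the gene table. The proteases that C1q activates were low in phagocytes: C1ra stood at 4.47, 1.87, 2.43 and 2.30 CPM in phagocyte-like cells from sham to reversed, and C1s1 at 0, 0.56, 1.99 and 3.07. Fibroblast or mural-like cells had C1ra at 24.2, 63.5, 116 and 63.5 CPM and C1s1 at 194, 122, 303 and 172, with the sham values on 10 cells. Serping1, the inhibitor of both proteases, stood at 388, 455, 1242 and 772 CPM in the fibroblast or mural-like cells. Between phagocyte-like and fibroblast or mural-like cells, C1q was thus higher in the former and its proteases in the latter. Protease levels of other classes are not given here.

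From day 2 to day 7 in macrophage-like cells, 24 complement genes had at least 30 UMIs, with 6 past 2-fold higher and 3 lower, beside 11.7% and 7.05% of all genes. Their median log2 was 0.24 against -0.04 for all genes. The higher ones included C2, C4b and C3, which act downstream of C1, Cfb of the alternative pathway and Serping1, a regulator. C2 had only 2 UMIs at day 2, and the interval of its log2 ratio (-0.51 to 2.87) held 0. C4b was 1.70 CPM at day 2 and 49.4 at day 7 on 1 and 199 UMIs, and C3 was 8.50 and 53.6 CPM on 5 and 216 UMIs. Cfb and Serping1 had 0 UMIs at day 2, which allows up to 5.10 CPM, and 19.6 and 10.4 CPM at day 7. In the cells of the macrophage clusters Cfb had the opposite direction, with 78.2 CPM at day 2 on 19 UMIs and 18.9 at day 7 (log2 -1.99, -2.68 to -1.23), so no direction is given for it. C5ar1, the C5a receptor, was lower at day 7 with 319 CPM against 810 (log2 -1.34, -1.49 to -1.19), as were Lrp1 and Cd59a. C5ar1 was also past 2-fold lower in the macrophage clusters (280.2 against 794 CPM), where Lrp1 (log2 -0.12) and Cd59a (log2 -0.096) were not, and a pseudocount of 10 CPM left 1 of the 3 lower calls. Properdin (Cfp), which stabilises the alternative convertase, was 573 and 290 CPM, just inside 2-fold. In the macrophage clusters Cfp (522 and 256 CPM) and the integrin gene Itgb2 (239 and 119 CPM) were just past 2-fold lower.

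From day 7 to reversed, 0 of 23 complement genes were past 2-fold higher and 1 was lower, beside 2.23% and 2.38% of all genes, with a median of -0.06 against -0.05 for all genes. The lower one was Clu (clusterin), a terminal pathway regulator, at 86.3 against 189 CPM. In the macrophage clusters 24 complement genes were compared, with C6 past 2-fold higher and Clu again past 2-fold lower. Against sham, 6 of 17 genes were past 2-fold higher at day 2 and 7 of 20 after reversal, none lower. All genes had 31.5% and 31.7% past 2-fold higher, so these shares are near the background. Sham had between 0 and 10 UMIs of each of these, and its 8 cells put the limit of a count of 0 at 96.6 CPM. With genes at 0 in sham set to that limit, 2 of 3 such genes were past 2-fold at day 2 and 1 of 4 after reversal, and the medians were 0.50 at day 2 and 0.07 after reversal.

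The transcription factors Maf, Spi1 and Irf8 had 0 of 3 past 2-fold in each of the 4 comparisons of macrophage-like cells. Maf was 225 CPM at day 2, 372 at day 7 and 297 after reversal, and Spi1 was 595, 509 and 454. Irf8 was 255, 333 and 295. Maf and Irf8 were thus ordered like C1q over these 3 libraries, with day 2 lowest and day 7 highest. In the macrophage clusters Maf was past 2-fold higher at day 7 than at day 2, with 418 against 206 CPM.

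Across 54 sums of a class or phagocyte subset in 1 library (at least 30 cells each), the chains tracked each other with Pearson correlations of 0.97 to 0.99 between pairs. The genes most like their sum were Cx3cr1 (0.98), the fractalkine receptor gene, then Aif1 (0.98), Cd72, AF251705, Adgre1, Ctss, Fcgr3, Fcgr1, Mpeg1 and Lyz2. Several of these are markers used to call the cells, and the sums share libraries, so the values describe the pattern only. Over 15 phagocyte subset sums the leaders were Adap2 (0.95), Il10rb (0.95), Cx3cr1 (0.95), Rgs10 and Camk1. Over 22 phagocyte cluster sums they were C3ar1 (0.96), the C3a receptor gene, Ptgs1, Abhd12, Camk1 and Col14a1. Cx3cr1, Aif1, Camk1 and Ptgs1 were each in more than 1 of these lists of 10 genes.

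In the plate-based sample, 416 of 768 wells had at least 50000 gene reads, and all values are RPM (reads scaled to a total of 1000000 per well), without molecular identifiers. The subset lists were scored over all of these wells, of which 114 were classed as phagocytes, and not within that class as for droplets. In 108 wells called macrophage-like, 47 of them in the phagocyte class and 55 in no class, Adgre1 reached 10 RPM in 92.6% of wells against 74.7% of others. Per kilobase of exon, the median of these wells was 3860 for C1qa (quartiles 2569 and 5507), 6552 for C1qb (4133 and 8055) and 1715 for C1qc (932 and 2957). C1qb was the highest chain per kilobase in 91 of the 108 wells, C1qa in 13 and C1qc in 4. The exon length used for C1qc (1931 bases, against 1040 and 1088) includes longer annotated forms, which lowers its value per kilobase. The 47 wells in the phagocyte class had medians of 4314, 7541 and 2425 per kilobase. Without the length the medians of the 108 were 4014, 7129 and 3312 RPM, and C1qb was still first.

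The other called wells had lower medians with wide spreads, and type 1 dendritic wells came nearest to the macrophage-like ones. The 22 wells called Ly6c2-high monocytes had medians per kilobase of 79.0 for C1qa, 282 for C1qb and 82.6 for C1qc, and Ly6c2 reached 10 RPM in 11 of the 22. The 51 wells called Ace-positive monocytes had 96.7, 159 and 38.9, and the 43 called type 2 dendritic 284, 312 and 110. The 45 called type 1 dendritic had 3547, 5848 and 1598, each slightly below the macrophage-like median, and Xcr1 or Clec9a reached 10 RPM in 55.6% of them. The 137 wells without a subset had a median summed C1q of 10010 RPM, against 15043 in macrophage-like wells. C1qb was highest in 20 of the 22 monocyte wells, and it made up 61.2% of their mean C1q per kilobase against 50.4% in macrophage-like wells. Among all kept wells, 302 of 416 (72.6%, 68.0 to 76.8) had every chain at 100 RPM or more, and among macrophage-like wells 100 of 108 (92.6%, 85.9 to 96.7). Plates carry the letters A, B and C, whose meaning is not given, and their median summed C1q was 4045, 10649 and 10298 RPM.

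**Figure D5:**
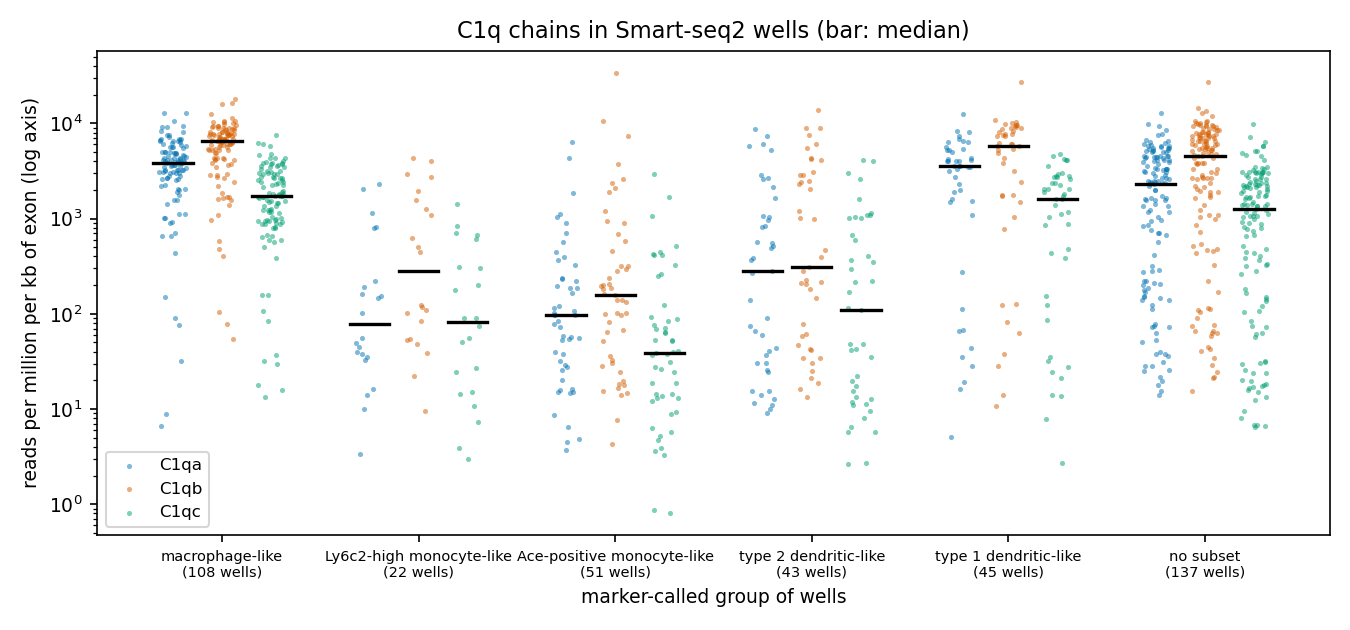
C1q chains in the wells of the plate-based sample called macrophage-like (108), Ly6c2-high monocyte-like (22), Ace-positive monocyte-like (51), type 2 dendritic-like (43) and type 1 dendritic-like (45), and in those with no subset (137); each point is 1 well in RPM per kilobase of exon (log axis), and bars are medians; 1 C1qb value of 0 among the wells with no subset is not drawn. The macrophage-like medians of 3860, 6552 and 1715 lie above the monocyte and type 2 dendritic ones and near the type 1 dendritic ones, and single wells of every group overlap.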

How the data were processed

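The droplet matrices were deposited by the authors as raw UMI counts, and the table of wells was deposited as raw read counts; Cell Ranger, STAR, GRCm38 and mm10 are named in the submitters' processing notes without versions or roles. Cells needed 200 detected genes and no more than 50% mitochondrial UMIs, and the highest Scrublet doublet scores were removed at 0.8% per 1000 deposited cells. This left out 398, 60, 3 and 45 cells (sham to reversed) for genes, 1607, 472, 54 and 414 for mitochondrial UMIs, and 180, 50, 155 and 85 as doublets.

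Cells were called singly by marker score with a margin of 0.1 over the next list. As an alternative they were clustered with Leiden at resolution 1 (2000 variable genes, 30 components, 15 neighbours) without the C1q genes. Levels are summed UMIs as CPM. A pseudocount of 1 CPM was added before log2 ratios were taken, which understates the ratios of low genes, with exact conditional binomial intervals. Sums with fewer than 30 UMIs over both libraries were not compared. The limit of a count of 0 is 3 counts. Shares carry Clopper-Pearson intervals. Each well's reads were scaled to its gene reads, and 28532 of the 28692 droplet gene identifiers were shared with its table of 51912 genes, which had 92 spike-in entries and 1 EGFP entry that were left out.

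The members, marker lists, gene lists and tests were chosen with earlier results of these data known. Named genes are the chains, the complement lists, the state gates and the 10 genes most correlated with the summed chains; cluster names rest on leading genes seen after clustering. Alternatives added after seeing the data were all phagocyte-like cells, single clusters, likeness over clusters and leaving out cluster 10. The comparison code was tested on simulated counts. Some listed and leading genes are not reported here. The work used scanpy 1.11.5, scipy 1.17.1, numpy 2.4.6, leidenalg 0.10.2, pandas 2.3.3, igraph 0.11.9 and matplotlib 3.10.9 under Python 3.11.15 and, for TMM factors, edgeR 4.0.16 in R 4.3.3.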

Additional observations from a re-analysis of the deposited data

How the results depend on the processing

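No value was marked reversed, but for ratios between libraries that mark needed a ratio past 2-fold to change sign. No such ratio of summed C1q in macrophage-like cells was past 2-fold, so the mark could not be given to them. The ratio of reversed over sham did change sign, and several values moved beyond their counting interval. The day 2 over sham log2 ratio of summed C1q was -0.31 in all phagocyte-like cells and -0.18 with TMM factors. Day 7 over day 2 was 0.21 by clusters, 0.41 with a limit of 20% mitochondrial UMIs, 1.06 in all phagocyte-like cells and 0.74 with TMM. It was 0.65 with cells weighted equally and 0.53 with the proximal tubule-like level of each library subtracted as a stand-in for free RNA. Reversed over day 7 was -0.15, -0.12, -0.20 and -0.11 under the first 4 of these settings, -0.021 with that level subtracted and -0.14 without cluster 10. Reversed over sham was 0.55 in all phagocyte-like cells and 0.44 with TMM. Clusters gave no usable sham value, since 1 sham cell lay in the named macrophage clusters.

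The phagocyte-like share of C1q UMIs was 86.6%, 95.5%, 92.9% and 90.3% (sham to reversed) by clusters, and 72.4%, 90.7%, 81.9% and 81.5% with the 20% limit. Without doublet removal it was 84.4% at day 7 and 84.4% after reversal. Without thinning, 100% of macrophage-like cells had a C1q UMI at day 2 and at day 7, and 4.99%, 47.4%, 97.8% and 76.5% of tubule-like cells. Thinned to 500 UMIs, tubule-like cells had 1.22% in sham, 6.10% at day 2 and 14.5% after reversal. As a mean of each cell's proportion, C1qb was 42.5% at day 2 and 33.2% after reversal, and C1qc 22.8% at day 2. With a pseudocount of 10 CPM, 1 complement gene was lower at day 7 than at day 2 instead of 3. With wells chosen by 3 or more macrophage markers at 1 RPM or more, 72.8% had all chains at 100 RPM. That rule kept 415 of the 416 wells, so it hardly selected, and its share is near the 72.6% of all kept wells. Beyond these settings' own construction, causes were not tested. Without a filter on low counts, 76.3% of genes were past 2-fold from sham to day 2 against 38.7% with it.

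The sham macrophage-like values rest on 8 cells and those of day 2 on 44, and 1 library per time point leaves the spread between libraries unmeasured. No paired analysis was possible because each group was 1 library, as far as time points go; cell subsets were paired within libraries.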

Other observations

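Some groups that marker scores put outside the macrophages carried C1q above the tubule-like level of their library. Cells called plasma cells had 2199 CPM of summed C1q at day 2, 3481 at day 7 and 1411 after reversal. Cells called erythroid had 2061 CPM at day 2 on 5 cells, 2422 at day 7 and 660 after reversal, whereas the erythroid clusters had 103 (25 cells), 1119 and 267 CPM in those libraries. Cells called plasmacytoid dendritic had 8026, 13258 and 12033 CPM at day 2, day 7 and after reversal, and Siglech, which defines that type, had a UMI in 10.1% of them. Cells called Ace-positive monocytes had 4163, 5607 and 4274 CPM at day 2, day 7 and after reversal, against 551, 1075 and 402 in the cluster of that name. Cells left without a class had 136, 326, 2886 and 723 CPM from sham to reversed.

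Deposited barcodes with fewer than 200 genes had 10.2, 62.1, 504 and 127 CPM of summed C1q from sham to reversed, in the same order over libraries as the tubule-like cells. The day 7 value rests on 4 UMIs in 3 barcodes.

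Over phagocyte clusters the 10 genes most correlated with the summed chains included the receptors of the complement fragments C3a and C5a, C3ar1 (0.96) and C5ar2 (0.93), which the correlation over cell classes did not place among its 10.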
